A study of Homo sapiens with 2 samples.

Results

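The COPII and COPI vesicle coats and the COG and TRAPP tethering complexes were followed in cells of the human liver cancer line MHCC97H in which GP73, a Golgi membrane protein encoded by GOLM1, was knocked down. The list held 48 genes, and 44 had a row of the array annotated with their symbol alone. They were chosen by gene symbol, with older symbols counted, and not by a rule on their values, though earlier results of these data were known. A gene is called measured when the higher of its signals reached the floor, a log2 signal of 5.84, which is the 50th percentile of that quantity over 22411 genes. By this rule 42 of the listed genes were measured, among 11206 measured genes in all. The COPII group had 12 of 13 genes measured, the COPI group with its ARF GTPases 12 of 14, COG 6 of 8 and TRAPP 12 of 13.

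The series comprised 2 arrays. One held RNA of MHCC97H control cells, in which GP73 is high per the labels, and the other RNA of MHCC97H cells with GP73 knocked down. Neither culture received a further treatment, per the labels, and both were grown with 10% fetal bovine serum. The sample titles carry the marks shv for the control and shGP73 for the knockdown, and the sources used here give neither the sequence of the construct nor whether the cells were a clone or a pool. Each condition was measured on 1 array, so no value below has a replicate error and no test between conditions was made.

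Proteins leave the endoplasmic reticulum in COPII vesicles, whose inner layer selects cargo and whose outer layer bends the membrane. COPI vesicles carry escaped residents back from the Golgi and move enzymes between Golgi cisternae, and their coat is recruited by ARF GTPases. TRAPP complexes switch on RAB GTPases and tether incoming vesicles, and COG tethers vesicles that return Golgi glycosylation enzymes to their proper cisterna. Inherited defects of COG subunits are known to disturb protein glycosylation. Liver cells rely heavily on this route because they secrete most plasma proteins.

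The members' promoters were searched for letters bound by factors of the unfolded protein response, which is known to regulate secretory pathway genes. RefSeq promoter windows of assembly GRCh38.p14, from 250 bases before to 50 bases after the gene start, were matched by symbol for 37 of the 42 measured members, the others being ARF4, COG7, SEC24D, TRAPPC8 and TRAPPC9. The motif TGACGTGG, known as the UPRE and bound by XBP1 and ATF6, was searched on both strands and always contains the shorter core ACGTG. It stood in the windows of 6 of the 37 members, or 16.2%, against 0.795% of 27305 promoters of all genes and 0.869% of the 8174 promoters of measured protein-coding genes. All of the 6 were coat genes, 3 of the 11 COPII and 3 of the 11 COPI genes with a window, and none of the 15 COG and TRAPP windows held the motif. The sites are shown because the motif was far more frequent in the coat genes' windows than among all promoters. Each is turned to the strand of the motif, with the motif in capitals and 11 bases on either side, and COPB2 held 2 sites.
SEC16A at chr9:136484707-136484736 (+): ttcagtccggcTGACGTGGcaccagggcca
SEC23A at chr14:39103221-39103250 (-): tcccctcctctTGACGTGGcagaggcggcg
SEC24A at chr5:134648595-134648624 (+): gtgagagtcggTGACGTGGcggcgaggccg
COPA at chr1:160343227-160343256 (-): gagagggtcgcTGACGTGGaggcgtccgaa
COPB2 at chr3:139389632-139389661 (+): gtcagactgacTGACGTGGaacttccggga
COPB2 at chr3:139389825-139389854 (+): actaagggccgTGACGTGGtgccgctgagc
COPB1 at chr11:14499841-14499870 (+): gagtccttggcTGACGTGGaagggggtggg
The first base of the motif on the gene's own strand lay at position -4 from the gene start in SEC23A, -48 in COPB1, -163 in the COPB2 site listed second and -179 in SEC24A. In COPA, SEC16A and the COPB2 site listed first it lay within the transcribed part, at bases 6, 16 and 31.

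The core ACGTG was present in 20 of the 37 windows, or 54.1%, against 21.6% of all promoters. It was held by 15 of the 22 coat windows and 5 of the 15 tether windows. The longer elements known as ERSE and ERSE-II, searched in the same way, were found in 0 of the 37 windows and in 0.0806% and 0.0549% of all promoters. The whole windows of COPB2, with its pair of UPRE sites, and of TRAPPC1 and TRAPPC11, the members with the highest and the lowest difference among those with a window, are given on the gene's strand. Capitals mark the UPRE and any other ACGTG on either strand, and TRAPPC1 and TRAPPC11 held none.
COPB2 at chr3:139389631-139389930 (-): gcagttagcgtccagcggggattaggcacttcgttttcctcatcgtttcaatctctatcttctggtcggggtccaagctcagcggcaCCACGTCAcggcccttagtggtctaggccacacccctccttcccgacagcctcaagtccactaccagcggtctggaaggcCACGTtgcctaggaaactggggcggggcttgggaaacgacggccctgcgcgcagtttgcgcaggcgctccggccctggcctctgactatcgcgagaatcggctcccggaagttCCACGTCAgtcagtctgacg
TRAPPC1 at chr17:7931950-7932249 (-): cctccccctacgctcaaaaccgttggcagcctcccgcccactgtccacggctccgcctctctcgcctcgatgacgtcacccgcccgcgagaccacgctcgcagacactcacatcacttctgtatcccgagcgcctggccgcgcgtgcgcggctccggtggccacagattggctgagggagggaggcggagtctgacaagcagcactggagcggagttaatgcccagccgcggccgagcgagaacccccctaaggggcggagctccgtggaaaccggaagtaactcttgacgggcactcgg
TRAPPC11 at chr4:183659043-183659342 (+): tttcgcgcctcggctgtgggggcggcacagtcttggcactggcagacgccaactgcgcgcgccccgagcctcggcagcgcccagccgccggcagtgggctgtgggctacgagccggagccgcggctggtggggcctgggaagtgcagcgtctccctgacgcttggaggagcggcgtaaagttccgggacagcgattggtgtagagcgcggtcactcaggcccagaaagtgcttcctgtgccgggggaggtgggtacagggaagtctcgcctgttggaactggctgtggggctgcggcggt

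The targeted gene and the state of the arrays were checked first. GOLM1 stood at a log2 signal of 9.13 in control cells and 7.46 after knockdown, 3.18-fold lower, a difference of -1.67. The differences followed the signal level, with a median of 0.15 in the lowest and -0.07 in the highest of 10 equal bins of mean signal, and 27 of the 42 measured members lay in the upper 4 bins. For that reason each member is also given relative to the median difference of the genes in its own bin, called genes of like signal. The liver epithelial markers KRT8 and KRT18 had signals between 10.8 and 10.9, and 8 of the 13 listed liver markers with a row were measured, whereas ALB and AFP, the defining secreted proteins of hepatocytes and fetal liver, were below the floor in both arrays. Of the markers of other cell types with a row, 1 of 9 for fibroblasts, 4 of 8 for endothelium and 3 of 9 for leukocytes were measured. The mean log2 signal over all rows of the leukocyte list was 4.87 in control cells and 5.10 after knockdown, and that of the fibroblast list 4.32 and 4.51. All 3 measured leukocyte markers were higher, where 43% of genes of like signal were lower. NKG7 and CD8A were just below the floor in control cells and counted as measured only through the knockdown array. Their direction was therefore fixed by the floor rule. The median difference of the 3 was 0.47, with CD68 from 9.25 to 9.74, while the defining leukocyte marker PTPRC stood low, at 2.34 and 2.42. The measured endothelial markers were lower in 3 of 4, against 38.3% of genes of like signal. PECAM1 went from 5.98 to 5.26, which is below the floor, so its direction was also fixed by that rule, and LYVE1 was the higher one. The measured liver markers were lower in 7 of 8, against 47.5% of genes of like signal, with a median of -0.13 relative to those genes. Among the 7, APOB was below the floor after knockdown and counted as measured only through the control array, which fixed its direction. SERPINA1, also counted as lower, differed by only -0.02. The part of these markers in the results was not tested, and fewer cells of a type cannot be told apart from less RNA per cell.

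Most coat and tether genes had a slightly lower signal in the knockdown array, and of the 4 complexes COPI had the lowest median. COPI and COG lay at -0.14 and -0.13 relative to genes of like signal, and COG was the lower of them in deposited signals without a floor, at -0.20 against -0.19, and in several alternatives relative to genes of like signal, such as the 200 genes nearest in signal, at -0.16 against -0.12. Of the 42 measured members 32 were lower and 10 were higher, against 50.5% of all measured genes with a difference below 0 and 57.3% of genes of like signal. The median difference was -0.14 over the members and -0.01 over all measured genes. Relative to genes of like signal the members' median was -0.09. The changes were small. Lower by at least 0.32 on the log2 scale, were 4 members, PREB, ARF4, TRAPPC8 and TRAPPC11, against 11.5% of all measured genes, and higher by at least 0.32 were 2, TRAPPC1 and TRAPPC5, against 8.24%. The share of members lower by at least 0.32, 9.52%, was thus near or below the background, and below the 13.2% of genes of like signal. TRAPPC1 was the 1 member past 1.5-fold, a threshold that 1.08% of all measured genes passed upward and 1.55% downward, and no member was past 2-fold, as 0.134% of all measured genes were downward and 0.161% upward.

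**Figure D1:**
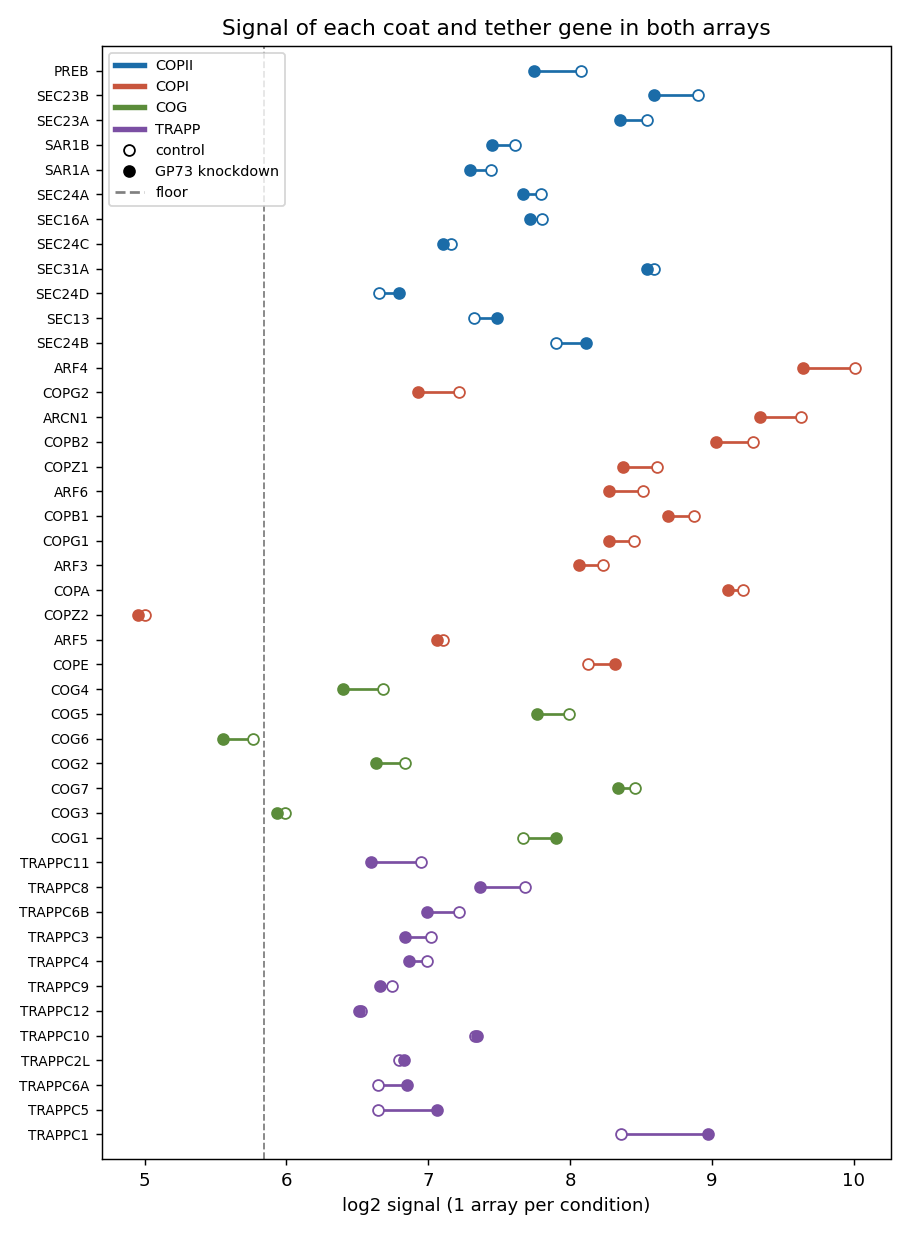
Log2 signal of the 44 coat and tether genes with a row of their own, with 1 array per condition; open circles are the control array, filled circles the GP73 knockdown array, colours the 4 complexes and the dashed line the floor of 5.84. Filled circles lie to the left of open circles in most genes, and TRAPPC1, from 8.36 to 8.97, has the longest step to the right.

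The only yardstick of measurement error was the agreement of different rows for the same gene on these arrays. Of all genes, 99 had 2 rows above the floor, and around its gene's mean the difference of a row varied with an SD of 0.133, which leaves out variation between cultures, RNA preparations and hybridisations. By this measure 29 of the 42 members were farther from 0 than 1 SD, against 61.7% of all measured genes. Below the median of genes of like signal by more than this SD were 15 of the 42 members, against 30.6% of all measured genes, and 8 were above it by as much, against 27.7%. Whether 2 arrays of the same cells would differ by as much was not measured.

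**Figure D2:**
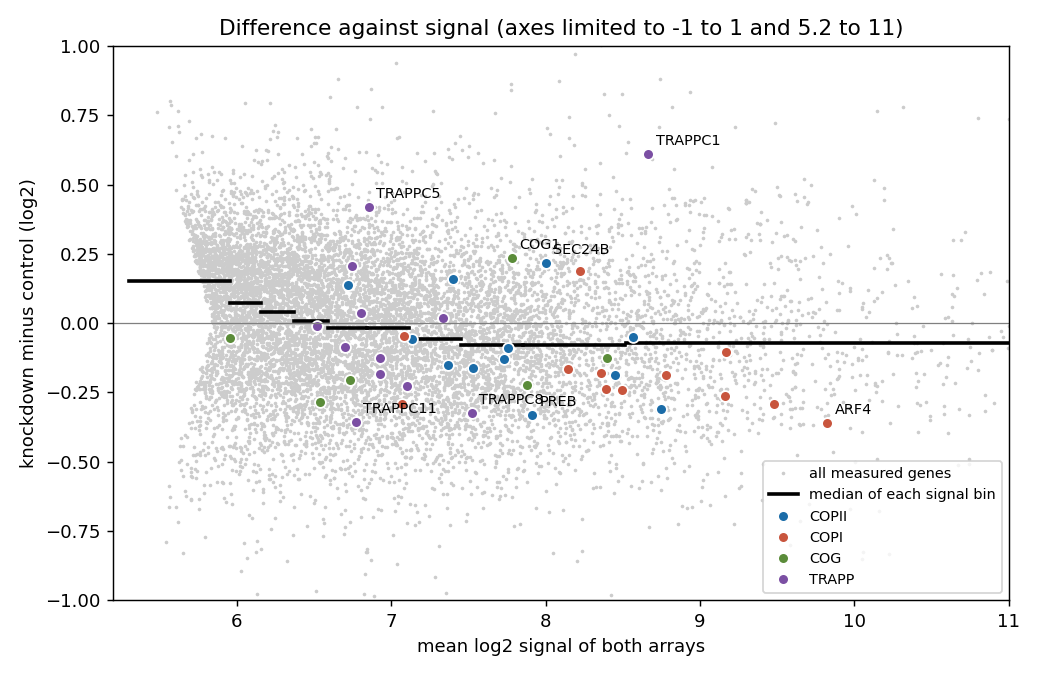
Difference in log2 signal, knockdown minus control, against the mean log2 signal of both arrays; grey points are all measured genes, black bars the median of each of 10 signal bins, and coloured points the members of the 4 complexes. The bar falls from 0.15 in the lowest bin to -0.07 in the highest, and COPI points lie mostly below it.

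In the COPII group 9 of 12 measured genes were lower in the knockdown array, 60.3% being the share among genes of like signal, with a median difference of -0.11. Relative to genes of like signal the median was -0.03, so most of the group's shift was also seen in genes of the same signal. By more than 0.133, 2 COPII genes lay below that median and 3 above it. SAR1A and SAR1B are the small GTPases that start coat assembly. SAR1A had log2 signals of 7.44 in control cells and 7.29 after knockdown, a difference of -0.15. SAR1B, whose loss is known to block the export of chylomicrons, had signals of 7.61 and 7.45, a difference of -0.16. Both GTPases thus stood about equally lower, 0.01 apart. PREB, the membrane exchange factor that loads SAR1 with GTP, had signals of 8.08 and 7.75, a difference of -0.33 or 1.26-fold lower, the lowest of the COPII genes. SEC16A, the scaffold that organises exit sites, had signals of 7.80 and 7.71. A second SEC16A row lay below the floor, at 4.36 and 4.39, and was not used.

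The inner coat pairs a SEC23 protein, which activates the GTPase of SAR1, with a SEC24 protein, which binds cargo. SEC23B, mutated in an inherited anemia, had signals of 8.90 in control cells and 8.59 after knockdown, a difference of -0.31. Its paralog SEC23A had signals of 8.54 and 8.35, a difference of -0.19. Both SEC23 genes were lower, whereas the SEC24 paralogs were split. SEC24A had signals of 7.79 and 7.67 and SEC24C of 7.16 and 7.11, differences of -0.13 and -0.06. SEC24B had signals of 7.90 and 8.11, a difference of 0.22, and SEC24D of 6.65 and 6.79, a difference of 0.14. The SEC24 differences spanned 0.34 from SEC24A to SEC24B. The SD of a difference between 2 rows of 1 gene was 0.188, but a span over 4 genes is the widest of several gaps, so the values are not directly comparable. SEC24A and SEC24B are known as the more alike pair of the family by sequence, as are SEC24C and SEC24D, so the higher and lower genes did not follow these pairs.

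The outer coat showed no common direction. SEC13, which also forms part of the nuclear pore, had signals of 7.32 in control cells and 7.48 after knockdown, a difference of 0.16. SEC31A, its partner in the outer cage, had signals of 8.59 and 8.54, a difference of -0.05, which was 0.02 above the median of genes of like signal. SEC31B shared its row with another gene and was not analysed here.

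In the COPI group 11 of 12 measured genes were lower in the knockdown array, against 59.6% of genes of like signal, with a median difference of -0.21. Relative to genes of like signal the median was -0.14, and 6 of 12 genes lay below it by more than 0.133 and 1 above it. Without the ARF GTPases 7 of the 8 coat subunits were lower, and their median of -0.22 became -0.14 relative to genes of like signal. After that adjustment the medians of COPI and COPII were 0.11 apart. With 1 array per condition no test of this gap was possible.

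The F-subcomplex, the part of COPI that resembles clathrin adaptors, showed a narrow range. All 5 measured subunits were lower, between -0.29 and -0.18, where 59.6% of genes of like signal to the COPI group were lower. The SD over subunits was 0.05, where all measured genes had an SD of 0.26. This is below the SD of 0.133 between rows of 1 gene. Other small groups were also narrow, such as the SAR1 pair at 0.007 and COG lobe B at 0.07, so the narrow range is not particular to the F-subcomplex. ARCN1, the delta subunit, had log2 signals of 9.63 in control cells and 9.34 after knockdown, a difference of -0.29. COPZ1, a zeta subunit, had signals of 8.62 and 8.37, a difference of -0.24. COPB1, the beta subunit, had signals of 8.88 and 8.69, a difference of -0.19. The gamma subunits are encoded by a pair of paralogs, and both were lower. COPG1 had signals of 8.45 and 8.27, a difference of -0.18. COPG2 had signals of 7.22 and 6.93, a difference of -0.29, or 1.22-fold lower. COPZ2, the paralog of COPZ1, was below the floor with signals of 5.00 and 4.95, so no direction is given for it.

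In the B-subcomplex, which forms the outer cage and reads retrieval signals, the subunits were split. COPB2, the beta-prime subunit that recognises dilysine signals, had signals of 9.29 in control cells and 9.03 after knockdown, a difference of -0.26. COPA, the alpha subunit, had signals of 9.22 and 9.11, a difference of -0.11. COPE, the epsilon subunit, had signals of 8.13 and 8.31, a difference of 0.19, and was the 1 COPI gene that was higher. It stood 0.27 above the median of genes of like signal.

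All 4 measured ARF GTPases were lower, where 59.6% of genes of like signal to the COPI group were lower. Their median was -0.20, and -0.12 relative to genes of like signal. ARF4, which CREB3 is known to induce under Golgi stress, had signals of 10.01 in control cells and 9.64 after knockdown, a difference of -0.36 or 1.28-fold lower. This was the lowest of all 42 members in the signals as deposited, and rank 990 from the lowest of the 11206 measured genes. Relative to genes of like signal ARF4 stood at -0.289, and TRAPPC11, at -0.339, and COG4, at -0.293, were lower. ARF6, which acts at the plasma membrane and endosomes, had signals of 8.51 and 8.27, a difference of -0.24. ARF3, close in sequence to ARF1, had signals of 8.23 and 8.06, a difference of -0.17. ARF5, like ARF4 a class II ARF, had signals of 7.10 and 7.06, a difference of -0.05, so these class II paralogs were 0.32 apart. ARF1, the main recruiter of the COPI coat, shared its row with another gene and was not analysed here.

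**Figure D3:**
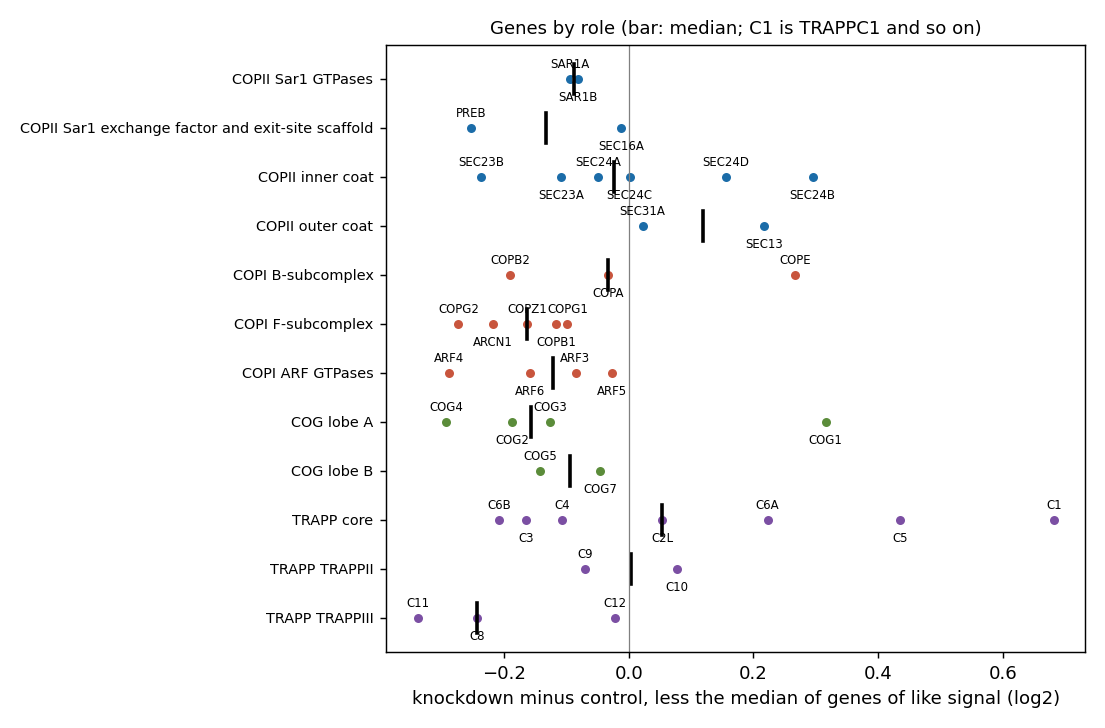
Difference of each measured member, knockdown minus control in log2 units, less the median difference of genes of like signal, by role in its complex; points are genes, 1 array per condition, and black bars are medians. The COPI F-subcomplex lies between -0.27 and -0.10, whereas the TRAPP core spreads from -0.21 to 0.68.

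In COG 5 of 6 measured subunits were lower in the knockdown array, against 54% of genes of like signal. The median difference was -0.17, and -0.13 relative to genes of like signal. COG is built from lobe A, subunits COG1 to COG4, and lobe B, subunits COG5 to COG8. In lobe A, COG4, which binds SNARE proteins, had signals of 6.68 in control cells and 6.40 after knockdown, a difference of -0.28. COG2 had signals of 6.84 and 6.63, a difference of -0.20, and COG3, just above the floor, had signals of 5.99 and 5.93. COG1, which links the lobes, went the other way, with signals of 7.67 and 7.90 and a difference of 0.24. In lobe B, COG5 had signals of 7.99 and 7.77, a difference of -0.22, and COG7 of 8.46 and 8.33, a difference of -0.13. Both lobes thus held mostly lower genes, with COG1 the exception. COG6 was just below the floor, with signals of 5.77 and 5.55, and COG8 shared its row with another gene and was not analysed here.

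TRAPP showed the widest spread of the 4 complexes and held the highest single value. Of 12 measured genes 7 were lower and 5 higher, with 53.8% lower among genes of like signal, a median difference of -0.05 and a range of 0.96. The SD over its genes was 0.29, against 0.14 in COPI, 0.17 in COPII, 0.19 in COG and 0.26 over all measured genes. TRAPPC1, a subunit of the core that activates RAB1, had signals of 8.36 in control cells and 8.97 after knockdown. Its difference of 0.61, or 1.53-fold higher, was rank 104 from the highest of the 11206 measured genes. Without TRAPPC1 the TRAPP median was -0.09 and the SD 0.23. Relative to genes of like signal the median of all 12 was -0.05. By more than 0.133, 4 of the 12 lay below genes of like signal and 3 above.

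Within the core, TRAPPC5 had signals of 6.65 in control cells and 7.06 after knockdown, a difference of 0.42 or 1.34-fold higher. TRAPPC6A had signals of 6.65 and 6.85, a difference of 0.21, while its paralog TRAPPC6B had signals of 7.21 and 6.99, a difference of -0.23. These alternative subunits, which occupy the same place in the core, were 0.43 apart, the widest gap within any of the paralog sets compared. TRAPPC3, the lipid-modified core subunit, had signals of 7.02 and 6.84, a difference of -0.18. TRAPPC4 had signals of 6.99 and 6.87, a difference of -0.13, and TRAPPC2L of 6.79 and 6.83, a difference of 0.04. The core was therefore split, with 4 genes higher and 3 lower.

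TRAPPIII acts on RAB1 in early secretion and autophagy. The 3 measured subunits that distinguish it were lower, where 53.8% of genes of like signal to the TRAPP group were lower. TRAPPC11, linked to muscular dystrophy and to glycosylation, had signals of 6.95 in control cells and 6.59 after knockdown, a difference of -0.36 or 1.28-fold lower. TRAPPC8 had signals of 7.68 and 7.36, a difference of -0.32. TRAPPC12 had signals of 6.53 and 6.51, which is close to no difference, and TRAPPC13 shared its row with other genes and was not analysed here. Of the TRAPPII subunits, which direct the complex to RAB11, TRAPPC9 had signals of 6.74 and 6.66 and TRAPPC10 of 7.33 and 7.35, differences of -0.09 and 0.02. The core and the TRAPPIII subunits had medians of 0.04 and -0.32. Of 4 further TRAPP genes listed, 1 had a row of its own, and it was below the floor.

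The promoter motifs were then set beside the differences. The 6 genes with a UPRE, SEC16A, SEC23A, SEC24A, COPA, COPB1 and COPB2, were all lower, between -0.26 and -0.09, with a median of -0.16. The 31 members with a window and no UPRE had a median of -0.15, so holders and others hardly differed. Among all measured protein-coding genes with a window, 47 of the 71 with a UPRE were lower, or 66.2%, against 52.9% of the 8103 without, and the medians were -0.10 and -0.02. Relative to genes of like signal these medians were closer, at -0.04 and -0.01. For the core ACGTG the members went the other way from all genes. The 20 members that held it had a median of -0.12 and the 17 that did not -0.17, whereas over all measured protein-coding genes the medians were -0.06 and -0.01. Relative to genes of like signal the members' medians were -0.07 and -0.11, and those over all measured protein-coding genes -0.04 and -0.0014.

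**Figure D4:**
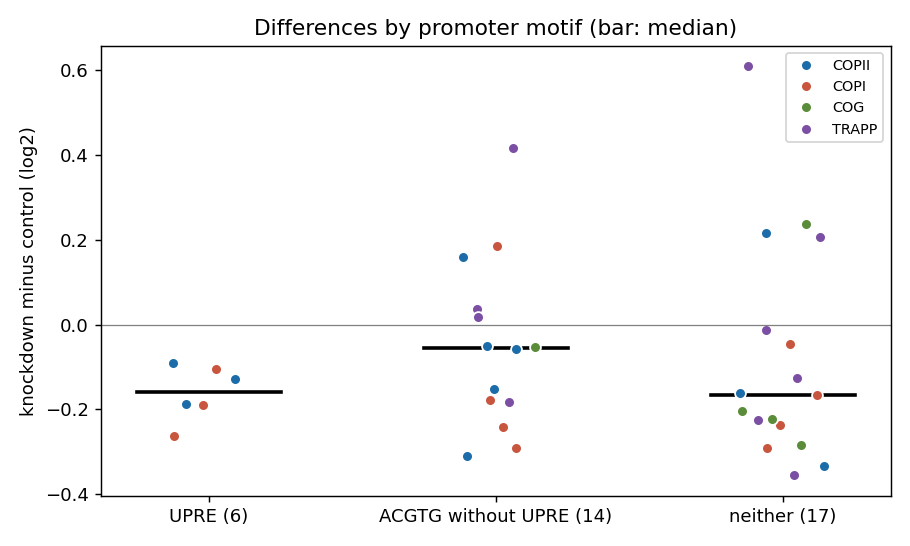
Difference in log2 signal, knockdown minus control, of the 37 measured members with a promoter window, grouped by the motif in the window; points are genes coloured by complex, 1 array per condition, and bars are medians. The 6 genes with a UPRE lie between -0.26 and -0.09, and genes with neither motif range from -0.36 to 0.61.

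Genes that work beside the coats and tethers were compared as further lists. COPII cofactors and exit-site proteins had a median of -0.13, with 12 of 17 measured genes lower, against 56.5% of genes of like signal. By at least 0.32, 4 of them were lower, against 12.8% of genes of like signal, and 0 higher. ERGIC2, a cycling protein of the intermediate compartment, stood at -0.46, MIA3, the collagen export receptor TANGO1, at -0.41, and SCFD1, which regulates SNARE assembly in early secretion, at -0.40. COPI cofactors and retrieval receptors had a median of -0.12, with 9 of 12 lower and 2 higher, against 56.3% of genes of like signal lower. ZW10 and RINT1, partners in the complex that tethers COPI vesicles at the endoplasmic reticulum, stood at -0.40 and -0.32, and the retrieval receptor KDELR3 at -0.21. Relative to genes of like signal the medians of these lists were -0.05 and -0.08.

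Other tethers had a median near that of the COPII cofactors, while those of clathrin adaptors and ARF regulators lay nearer to all genes. Of the exocyst, GARP, EARP and HOPS subunits 14 of 18 measured were lower, against 53.3% of genes of like signal, with a median of -0.11. EXOC5 stood at -0.43, VPS11 at 0.35 and VPS39 at -0.32. The clathrin and adaptor genes had a median of -0.04, 12 of 22 being lower, against 56% of genes of like signal. CLTB stood at 0.30, AP1G1 at -0.27 and AP3M2 at -0.26. Of the ARF exchange factors, GTPase-activating proteins and ARF-like genes 9 of 15 were lower, against 56.8% of genes of like signal, the median being -0.02. ACAP2 stood at -0.41, GIT2 at 0.34 and ASAP2 at 0.33. Relative to genes of like signal the medians were -0.07, 0.02 and 0.02. These gaps between lists were not tested.

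Regulators of secretory capacity had a median of -0.11 over 14 measured genes, 9 of them lower, against 55.1% of genes of like signal. MBTPS2, a protease that helps to release ATF6 and the CREB3 family from the Golgi membrane, had log2 signals of 7.48 in control cells and 6.83 after knockdown. Its difference of -0.66, or 1.58-fold lower, was larger in size than that of any coat or tether gene in the signals as deposited. CREB3L2, a membrane-bound factor known to induce COPII genes including SEC23A, was at 0.30, and CREB3L1 was at 0.29. The list thus held genes in both directions, and no relation between these genes and the coats was tested.

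**Figure D5:**
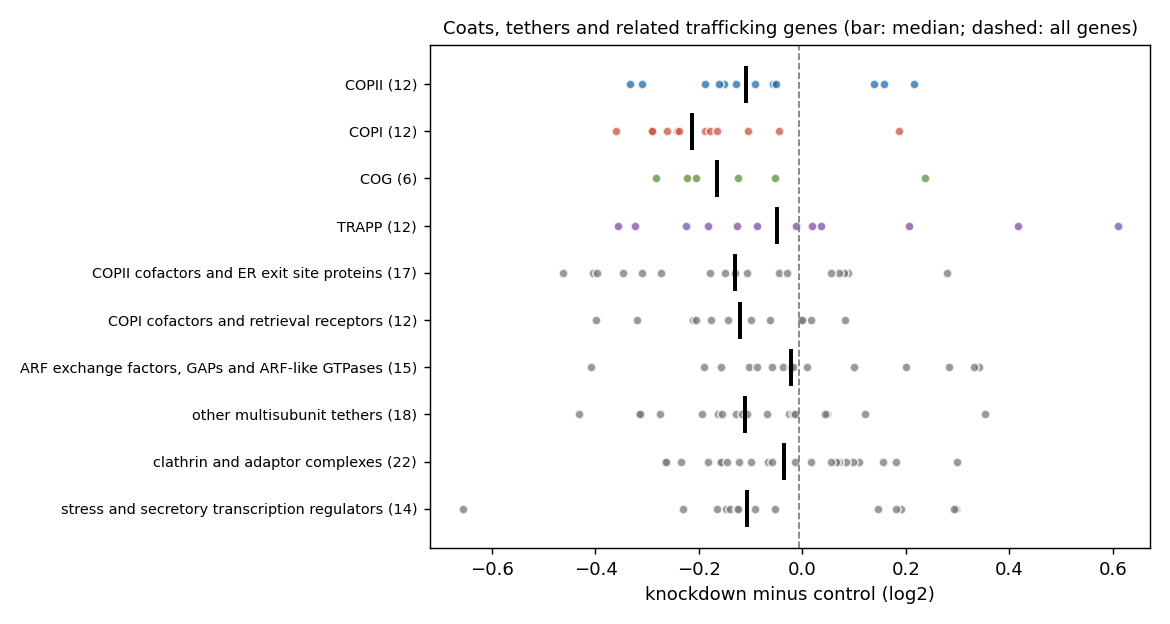
Difference in log2 signal, knockdown minus control, for the 4 complexes (coloured) and 6 lists of related genes (grey), with the number of measured genes in brackets; points are genes, 1 array per condition, bars are medians and the dashed line is the median of all measured genes. COPI has the lowest median, at -0.21, and the ARF regulators the highest, at -0.02.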

How the data were processed

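Total RNA from 1 culture per condition was extracted with Trizol, and 100 ng was labelled by the Affymetrix whole-transcript method, per the labels' protocols. The deposited table held 70523 log2 signals per array, which the authors had produced in Affymetrix Expression Console according to the submitters' processing notes. Neither its version nor the normalisation, log base or genome build is stated there. The scale was inferred from values that ran from 0.33 to 13.3 with medians of 4.72 and 4.80. The 1 array per group limits the precision.

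Rows with 1 symbol, 23781 in all, were named through the platform annotation, updated with RefSeq GRCh38.p14, by gene identifier for 21497, by symbol for 1974 and by an older symbol for 306; 4 kept their name. A gene with several rows was represented by the row with the highest mean. Each difference is knockdown minus control. Genes of like signal are those in the same of 10 equal bins of mean signal over measured genes. This step was tested on simulated shifts in gene sets far larger than the complexes, averaged over repeated draws. The simulation therefore does not show the precision for groups of the sizes reported here. The share of genes of like signal is the mean, over members, of the share in each member's bin. All members are named, with the 3 lowest and 3 highest of each complex and the paralogs in full, and the 3 measured genes with the largest absolute difference of each further list. The members, lists and motifs were chosen with earlier results of these data known, so nothing here is an independent check of them. The protein identity of paralogs was not computed. Python 3.11.15, numpy 2.4.6, pandas 2.3.3, statsmodels 0.14.6 and matplotlib 3.10.9 were used. The alternatives were other scalings, floors, row summaries, bins, summaries and fold thresholds, and COPI without the ARF GTPases.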

Additional observations from a re-analysis of the deposited data

How the results depend on the processing

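No median of a complex changed sign under any alternative run, but several moved by more than 1.5 times; leaving out the ARF GTPases bears on COPI alone, and all measured members were above the floor in both arrays. The median of COPI ranged from -0.30 to -0.14, of COPII from -0.20 to -0.05, of COG from -0.25 to -0.13 and of TRAPP from -0.15 to -0.05. The means were -0.18 for COPI, -0.08 for COPII, -0.11 for COG and -0.0021 for TRAPP. Relative to genes of like signal the median of COPI ranged from -0.16 to -0.12. That of COPII ranged from -0.07, when rows of a gene were averaged, to -0.02, with the 200 nearest genes. That of COG ranged from -0.16 to -0.03 and that of TRAPP from -0.05 to -0.03. The means relative to genes of like signal were -0.12 for COPI, -0.01 for COPII and -0.08 for COG. For TRAPP this mean was 0.03, of the other sign than its median. The value of COG nearest 0 came with the floor at the 75th percentile, where fewer subunits were measured. Median centring lowered the median of all measured genes from -0.01 to -0.10. The counts of genes lower by at least 0.32 were the least stable. With median centring they were 2 for COPII, 6 for COPI, 1 for COG and 11 for all members. With quantile normalisation, and likewise with the trend over signal removed, they were 0 for COPII, 0 for COPI, 1 for TRAPP and 1 for all members. At 1.2-fold they were 2 for COPII, 3 for COPI, 1 for COG and 8 for all members, and at 1.5-fold 0 for COPII, COPI, TRAPP and all members. The share of all measured genes was 1.55% at 1.5-fold. It was not computed for the other scalings or at 1.2-fold, so those counts have no background and are no result about the members. Without the ARF GTPases COPI had 0 genes lower by at least 0.32 and 7 lower genes, as fewer genes were counted. With the floor at the 75th percentile COG had 2 lower subunits, as fewer were measured. Changes of sign were limited to genes near 0, TRAPPC2L and TRAPPC10 with median centring and SEC31A with quantile normalisation or the trend removed. No replicate could be left out. No paired analysis was possible because each condition had 1 array and the labels carry no replicate numbers. Signal over background was not available, so the floor limits what can be said of COPZ2 and COG6.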

Other observations

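Some members lie next to each other in the genome. SAR1B and SEC24A are neighbouring protein-coding genes on chromosome 5, with 0 coding genes between them in RefSeq, and had differences of -0.16 and -0.13. SEC23A and TRAPPC6B on chromosome 14 have 1 coding gene, GEMIN2, between them, and had differences of -0.19 and -0.23.

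The base composition of the promoter window differed between the higher and the lower members. The 9 members that were higher and had a window had a median GC content of 71.7%, between 56% and 81%, and the 28 that were lower a median of 64.5%, between 44.7% and 77.3%. Over all measured protein-coding genes with a window the median difference was -0.06 in the lowest and 0.04 in the highest of 4 equal classes of GC content. From the lowest to the highest class 59%, 56.8%, 53.6% and 42.1% of all these genes were lower, and 7 of 8, 9 of 10, 8 of 11 and 4 of 8 members. The members' medians of -0.22, -0.12, -0.18 and -0.01 followed no steady order over the classes. The part of base composition in the differences was not tested.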
